A study of Mus musculus with 30 samples.

Results

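Glutathione transferases join the tripeptide glutathione to reactive, mostly electrophilic molecules, which makes them easier to export from the cell. The soluble enzymes fall into classes named by Greek letters, and a separate membrane family, the microsomal transferases, also serves lipid peroxides and leukotrienes. In the gut epithelium they meet dietary and bacterial compounds, and several of their genes are classical targets of NRF2, the transcription factor that responds to oxidants. The 10 genes described here were chosen by name: Gsta1 and Gsta4 (alpha class), Gstm1 and Gstm3 (mu), Gstp1 (pi), Gsto1 (omega), Gstt1 (theta) and the membrane enzymes Mgst1, Mgst2 and Mgst3. All 10 were found among the 14475 genes of the deposited table, and all 10 were tested in every comparison.

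RNA was measured in pieces of ascending and descending colon from female mice, in 30 libraries with 7 controls and 8 mutants per region. The mutants were C1galt1f/f;VillinCre-ERT2;C3GnT-/- mice (TM-DKO). By this genotype they lack the core enzyme C3GnT throughout. They are meant to lose floxed C1galt1 in the gut epithelium, where the Villin promoter drives the Cre, once tamoxifen is given. Controls were littermates called WT, and the labels do not say which floxed, Cre or C3GnT alleles they carried. Tamoxifen was injected into mutants and WT littermates alike, at 0.5 mg (about 20 mg/kg) on each of 5 days, and tissue was taken 5 or 10 days after the last dose. Cage A, labelled as group 1, held mice of 3.4 months with the strain label "C57BL/6 Background", whereas cages B and C held mice of 2.6 and 3.2 months labelled "Mixed BL/6-129SvJ", so cage, age and strain label cannot be told apart. Each region had 2 controls and 3 mutants in cage A, 3 controls and 2 mutants in cage B, and 2 controls and 3 mutants in cage C. The labels do not say which libraries came from the same mouse, and the p-values measure the spread between these libraries.

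Values are FPKM, read numbers scaled by gene length and by library depth. Because the pieces are bulk tissue, fewer cells of a type and less RNA per cell cannot be told apart. The estimated depth was 1.43 to 8.85 M reads (M for mega), lowest in ascending mutants of cage A. Epcam, an epithelial surface gene, lay between 322 and 1011 FPKM in all 30 libraries, with its lowest values in descending mutant C1 and descending control A2 (416). C1galt1 was 21.5 to 45.7 FPKM in ascending controls and 18.3 to 34.3 in ascending mutants, against 28.0 to 38.7 and 14.6 to 36.7 in the descending colon, so the groups overlapped. B3gnt6, the gene of C3GnT, was at most 0.53 FPKM in ascending and 0.06 in descending mutants, and it exceeded 1 FPKM in 2 ascending controls only (9.52 and 19.52, cage B). A value over a whole gene does not check a deletion of part of it.

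A few libraries carried most of the extremes of the family and are named beside the results they touch. Descending mutant C1 was the lowest of its group for 9 of the 10 genes and the highest for Mgst2, and descending control A2 was the lowest for 7 and the highest for Mgst2. Ascending mutant B1 was the lowest mutant for 7 genes. At the other end, descending mutant A3 was the highest for 7 genes and ascending control B3 for 6.

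The members lie on 6 chromosomes of GRCm38 (GENCODE M21 positions), and each value covers the exons of a protein-coding gene. Gsta4 (78182774 to 78209349) and Gsta1 (78230656 to 78242684) are neighbours on the plus strand of chromosome 9. Gstm3 (107963696 to 107969283) and Gstm1 (108012255 to 108017973) lie on the minus strand of chromosome 3, which also carries Mgst2 (51660360 to 51682677, plus strand). Chromosome 19 holds Gstp1 (4035407 to 4037985, minus) and Gsto1 (47854970 to 47864790, plus). Mgst3 is on chromosome 1 (167371966 to 167393841, minus), Mgst1 on chromosome 6 (138140316 to 138156755, plus) and Gstt1 on chromosome 10 (75783813 to 75798584, minus).

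Because several of these genes are textbook NRF2 targets, the 250 bases upstream of their start sites were read from RefSeq (GRCm38.p6). Windows were found for 9 of the 10 genes, 11 windows in all, and Gsta4 had no entry. Both strands were searched for the antioxidant response element core TGACNNNGC, the AP-1 element TGANTCA, the Maf core TGCTGA and the xenobiotic response element core GCGTG, to which the aryl hydrocarbon receptor binds. The windows of Gstp1, Mgst1 and Mgst2 are shown because they hold the first 3 of these letter patterns. That of Gsta1, the member with the largest genotype and regional differences, is shown as a window that holds none. The windows of Gstm3, Gsto1 and Gstt1 also hold none, and sequence farther upstream was not searched. Capitals mark the matches. The windows are chr9:78230419-78230668 (Gsta1, plus strand), chr19:4037913-4038162 (Gstp1, minus), chr6:138140277-138140526 (Mgst1, plus) and chr3:51660929-51661178 (Mgst2, plus).
Gsta1: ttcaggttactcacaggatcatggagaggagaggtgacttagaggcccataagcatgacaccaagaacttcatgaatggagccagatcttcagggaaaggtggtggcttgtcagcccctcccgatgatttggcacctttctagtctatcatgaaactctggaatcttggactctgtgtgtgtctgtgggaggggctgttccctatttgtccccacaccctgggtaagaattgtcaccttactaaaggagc
Gstp1: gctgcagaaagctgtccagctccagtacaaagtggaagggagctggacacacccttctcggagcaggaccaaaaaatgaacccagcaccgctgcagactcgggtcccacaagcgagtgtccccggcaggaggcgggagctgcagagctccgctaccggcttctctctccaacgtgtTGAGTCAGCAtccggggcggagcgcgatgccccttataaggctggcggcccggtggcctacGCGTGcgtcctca
Mgst1: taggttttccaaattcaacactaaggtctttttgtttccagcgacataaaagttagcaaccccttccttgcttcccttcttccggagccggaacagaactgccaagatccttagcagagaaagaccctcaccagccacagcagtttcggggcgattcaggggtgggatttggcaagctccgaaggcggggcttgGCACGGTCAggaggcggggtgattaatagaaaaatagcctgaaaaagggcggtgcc
Mgst2: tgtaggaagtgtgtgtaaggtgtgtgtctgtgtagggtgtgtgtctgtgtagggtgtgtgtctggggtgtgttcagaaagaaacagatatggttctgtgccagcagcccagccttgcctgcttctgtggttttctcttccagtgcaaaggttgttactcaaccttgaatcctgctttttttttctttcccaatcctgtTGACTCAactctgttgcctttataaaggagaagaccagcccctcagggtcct

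In the Mgst1 window the capitals are TGACCGTGC read on the opposite strand, 56 to 48 bases before the start. The Gstp1 window has an AP-1 element 74 to 68 bases before the start, a Maf core on the other strand that overlaps it (70 to 65), and GCGTG at 13 to 9. Mgst2 has an AP-1 element 52 to 46 bases before the start. GCGTG also occurs in windows of Gstm1 and Mgst3, which are not printed. Such matches are common: of 32851 mouse windows of the same length, 10.2% hold TGACNNNGC, 6.75% TGANTCA, 16.1% TGCTGA and 28.2% GCGTG. A match describes letters and is not a site.

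Some members share sequence with relatives, which matters for reads of 50 nt. Of the distinct 50-base stretches of the Gsta1 transcripts, 89.7% also occur in another gene, chiefly Gm3776 (82.9%) and Gsta2 (44.6%), neither of which was analysed here. The share with any other gene was 51% for Gstp1 (51% with Gstp2), 28.8% for Gstm3 and 19.9% for Gstm1. Gstm3 shared most with Gm8834 (16%) and Gstm2-ps1 (11%). Gstm1 shared most with Gstm2-ps1 (14.9%) and with the member Gstm3 (8.6%). The labels do not say how the authors assigned such reads, so the values of these 4 genes are uncertain. The other 6 members share no 50-base stretch of their protein-coding transcripts with another gene. Exon sequence outside those transcripts was not checked, which leaves most for Mgst2 (649 stretches, exon length 3703 bases).

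Mgst3, a membrane enzyme with glutathione peroxidase activity, was the most abundant member, and in every group the order began with Mgst3 and Gsto1. In ascending controls the median was 399 FPKM for Mgst3 and 207 for Gsto1, the omega enzyme that reduces dehydroascorbate. Below these came Gstp1 (88.7), Mgst2 (63.3) and Gstm1 (49.8). Gsta4 (29.0), Mgst1 (27.5), Gstm3 (19.9), Gsta1 (10.75) and Gstt1 (10.5) followed. In that group the ranges of Mgst3, Gsto1 and Gstp1 did not overlap between neighbours, while every neighbouring pair from Gstp1 down did. In ascending mutants Mgst3 (594) was separate from Gsto1 (243), and Gstm3 (25.96) from Gstt1 (10.2). In the descending colon all neighbours in the order overlapped in both genotypes, with Mgst3 at 282 and 313 FPKM in controls and mutants and Gsta1 last at 3.96 and 8.57.

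The 10 genes together summed to 673 to 1084 FPKM in ascending controls (median 868) and to 749 to 1416 in ascending mutants (median 1278). In the descending colon the sums were 388 to 999 (median 689) and 352 to 1427 (median 797). Mgst3 alone made up between 29.7 and 54.2% of the sum in a library. The sum was lowest in descending mutant C1 and descending control A2, and the groups overlapped in both regions.

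**Figure D1:**
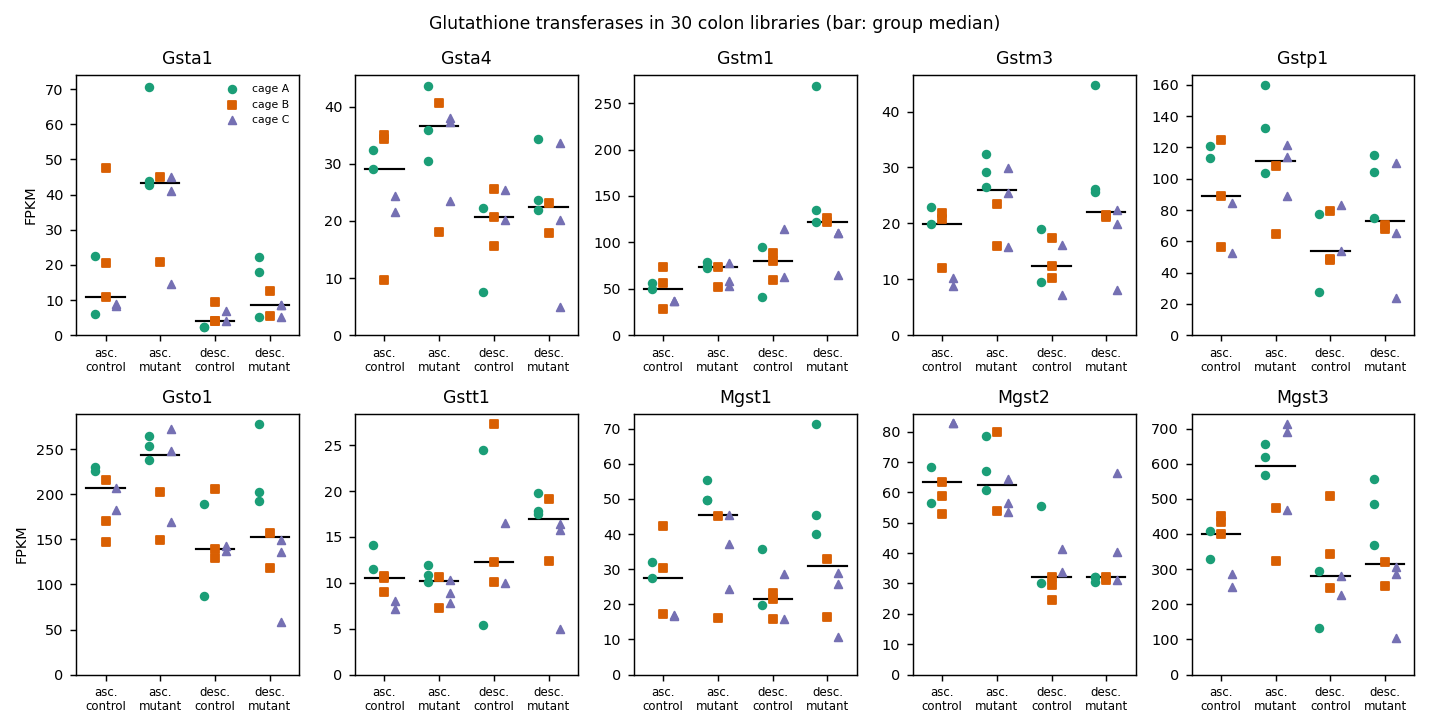
FPKM (linear axis from 0) of each of the 10 genes in every library, by region and genotype, with the symbol giving the cage and the bar the group median. Mgst3 and Gsto1 have the highest medians in all 4 groups, and Gsta1 lies between 2.21 and 9.59 FPKM in the descending controls.

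The comparison of mutants with controls in the ascending colon asks which genes differ in mice bred to lose the O-glycan enzymes. The values here do not check that loss. Gsta1, an alpha-class enzyme, had the largest difference of the 10, and Gstm1, Gstm3, Mgst1 and Mgst3 were also above controls by 0.52 to 0.61 on the log2(FPKM + 1) scale. None of the 10 passed an adjusted p under 0.05 (limma, Benjamini-Hochberg over all genes), and 0% of the 12178 genes tested did. At an unadjusted p under 0.05 there were 5 members, all above controls, and 1396 genes. The median difference of the 10 was 0.42, with 8 above and 2 below 0, while the median of all genes was -0.05, with 38.7% above 0.

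Gsta1 ran from 5.96 to 47.5 FPKM in ascending controls (median 10.75) and from 14.5 to 70.7 in mutants (median 43.2). All 8 mutants exceeded the control median, but only 1 exceeded the highest control, B3, so the groups overlapped. The difference was 1.39 (SE 0.377, 95% interval 0.59 to 2.19, adjusted p = 0.255 in limma). Gsta4, which handles lipid aldehydes such as hydroxynonenal, ran from 9.60 to 35.05 FPKM in controls and from 18.1 to 43.7 in mutants, a difference of 0.32 (SE 0.246).

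Gstm1, a mu-class enzyme, ran from 28.4 to 73.0 FPKM in ascending controls (median 49.8) and from 51.5 to 79.1 in mutants (median 73.3). Every mutant was above the control median and 4 were above every control. The difference was 0.52 (SE 0.169, 95% interval 0.16 to 0.88, adjusted p = 0.304 in limma). Gstm3, also of the mu class, ran from 8.89 to 22.9 FPKM in controls (median 19.9) and from 15.7 to 32.4 in mutants (median 25.96), with 6 of 8 mutants above every control. Its difference was 0.58 (SE 0.188, 95% interval 0.18 to 0.98, adjusted p = 0.304 in limma).

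Gstp1, the pi enzyme, ran from 52.8 to 125 FPKM in ascending controls and from 64.5 to 160 in mutants (difference 0.27, SE 0.191). Gsto1 ran from 147 to 231 FPKM in controls and from 149.8 to 273 in mutants (0.11, SE 0.126). Gstt1, a theta enzyme that acts on small halogenated molecules, stayed between 7.11 and 14.1 FPKM in controls and between 7.27 and 12.0 in mutants (-0.05, SE 0.108). Among these 3 genes the genotype groups overlapped and no 95% interval left out 0.

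Of the membrane enzymes, Mgst3 showed the clearest separation in the ascending colon, from 249 to 451 FPKM in controls (median 399) and from 324 to 712 in mutants (median 594). It was above every control in 7 of 8 mutants, the exception being B1. The difference was 0.61 (SE 0.188, 95% interval 0.21 to 1.00, adjusted p = 0.296 in limma). Mgst1, found in the endoplasmic reticulum and the outer mitochondrial membrane, ran from 16.7 to 42.2 FPKM in controls (median 27.5) and from 16.2 to 55.5 in mutants (median 45.4). Its difference was 0.58 (SE 0.240, 95% interval 0.07 to 1.09, adjusted p = 0.386 in limma), and the lowest value of all 15 libraries was that of mutant B1. Mgst2, which can make the leukotriene conjugate of glutathione, ran from 52.9 to 83.0 FPKM in controls and from 53.6 to 79.95 in mutants (-0.07, SE 0.128).

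The ascending result depended on cage B. Without cage B, 5 of the 10 genes passed, all higher in mutants. Of all 12115 genes tested there, 652 passed, 259 higher and 393 lower in mutants. The differences were then 1.86 for Gsta1 (adjusted p = 0.0239), 0.62 for Gstm1 (0.0227), 0.81 for Gstm3 (0.0353), 0.89 for Mgst1 (0.0172) and 0.97 for Mgst3 (0.0172), all adjusted in limma over all genes. With all cages kept but ascending mutant B1 left out, Gsta1 (1.65, adjusted p = 0.047), Mgst1 (0.84, 0.0445) and Mgst3 (0.77, 0.0445) passed in limma. They were among 170 of 12155 genes, 88 higher and 82 lower. Weights for library quality gave 5 members among 746 of 12178 genes (288 higher, 458 lower). Leaving out both B1 libraries, an alternative chosen after seeing the data, gave 5 among 839 of 12145 (347 higher, 492 lower). Under every other choice of filter, pseudocount and scaling, and without cage A or cage C, 0 of the 10 passed.

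**Figure D2:**
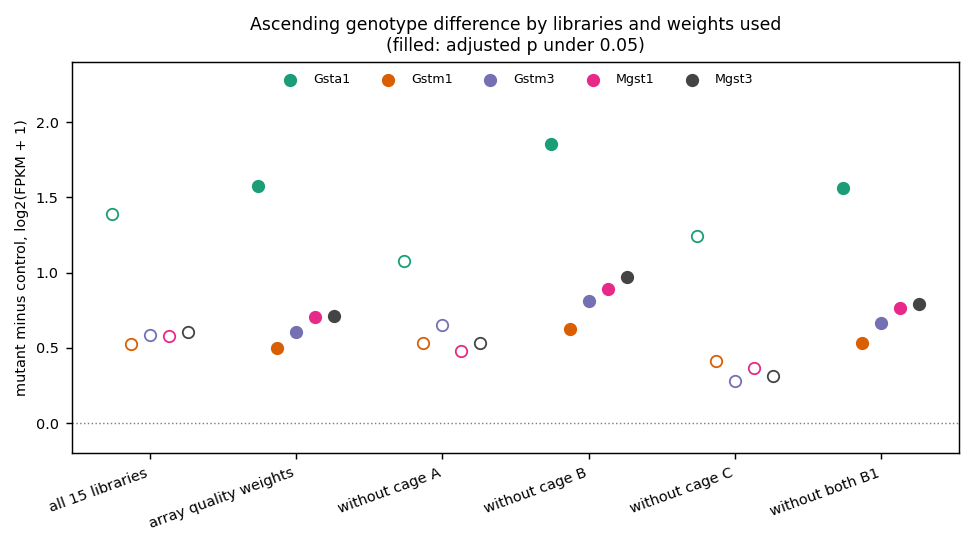
Mutant minus control difference, in log2(FPKM + 1), of 5 genes in the ascending colon under 6 choices of libraries and weights, filled where the adjusted p was under 0.05. All 5 genes lie above 0 in each, and all 5 are filled with quality weights, without cage B and without both B1 libraries.

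Within cages, Gsta1 was 2.02 higher in ascending mutants of cage A, 0.46 in cage B and 1.69 in cage C, as differences of means on the log2(FPKM + 1) scale. Mgst3 was 0.75 higher in cage A and 1.19 in cage C, with every mutant above every control of its cage, and -0.12 in cage B. Mgst1 had 0.78, -0.04 and 1.00, and Gstm3 0.44, 0.13 and 1.18. Gsta1, Gsta4, Gstm1 and Gstm3 were above controls in all 3 cages. A test of whether the genotype difference depended on cage called 0 of 10 members and 0% of 12178 genes (limma F test), with the lowest adjusted p of a member at 0.443 (Mgst3, unadjusted p = 0.00374). Without ascending mutant B2, Mgst3 passed this test (adjusted p = 0.0483 in limma).

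Other signals moved with genotype in the same ascending libraries. All 13 smooth muscle markers were below controls in mutants, with a median of -1.03, and their summed level ran from 45.2 to 545.5 FPKM in controls and from 29.6 to 94.85 in mutants. The highest sum was in control B1. The 11 fibroblast and matrix genes tested and the 8 macrophage genes tested were also all below controls (medians -0.91 and -0.62), with sums of 47.7 to 127 against 17.55 to 76 FPKM for the first and 33.1 to 217.5 against 18.8 to 85 for the second. Of the 18 absorptive colonocyte markers, 12 were above controls (median 0.16), and all 15 cell division genes were (median 0.43). All 9 T cell genes (median -0.46) and all 9 crypt stem cell genes (-0.29) were below controls. No marker of these lists was at 0 in all libraries of a group, no list member passed the test, and their part in the differences of the transferases was not tested.

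In the descending colon the same comparison gave values above 0 for all 10 genes, although that of Mgst2 was only 0.0008. Their median was 0.28, beside -0.04 for all genes, of which 37.8% were above 0. Without cage A, Gsta4 (-0.26), Gsto1 (-0.29), Gstt1 (-0.090) and Mgst3 (-0.29) were below 0. Members were correlated with each other, so these are not 10 separate results. With all cages, none of the 10 passed in limma (all 10 at an adjusted p of 0.999), and 0% of 12219 genes passed. At an unadjusted p under 0.05 there were 3 members (Gsta1, Gstm1 and Gstm3) and 267 genes. In the same libraries all 13 smooth muscle markers were below controls (median -0.62), with sums of 51.4 to 562 FPKM in controls and 60.75 to 366 in mutants. Also below were 10 of 11 fibroblast and matrix genes (-0.37), 7 of 9 macrophage genes (-0.41) and all 8 crypt stem cell genes (-0.35), while 13 of 17 absorptive colonocyte markers were above (0.13). No marker of these lists passed in limma, and their part in the differences of the transferases was not tested.

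Gsta1 ran from 2.21 to 9.59 FPKM in descending controls (median 3.96) and from 5.14 to 22.2 in mutants (median 8.57). All 8 mutants exceeded the control median and 3 exceeded every control. The difference was 1.02 (SE 0.346, 95% interval 0.28 to 1.75). Gstm1 ran from 41.7 to 114 FPKM in controls (median 79.5) and from 64.6 to 269 in mutants (median 122), with 5 of 8 mutants above every control, and a difference of 0.74 (SE 0.263, 95% interval 0.18 to 1.30).

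Gstm3 was the best separated of the family in the descending colon, from 7.25 to 19.0 FPKM in controls (median 12.3) and from 8.13 to 44.75 in mutants (median 22.0). Its mutants were above every control in 7 of 8 cases, the exception being C1. The difference was 0.77 (SE 0.249, 95% interval 0.23 to 1.30). The other 7 members differed by 0.00 (Mgst2) to 0.36 (Gstp1), and their 95% intervals all held 0. Mgst3 ran from 132 to 508 FPKM in descending controls and from 104.55 to 556 in mutants (0.22, SE 0.320), and Mgst1 from 15.7 to 35.9 and from 10.7 to 71.2 (0.35, SE 0.259). Without control A2 and mutant C1, an alternative chosen after seeing the data, the differences were 0.96 for Gsta1, 0.62 for Gstm1 and 0.75 for Gstm3.

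Cage A carried the largest descending differences. Gsta1 was 2.12 higher in mutants of cage A, 0.55 in cage B and 0.38 in cage C, and Gstm1 1.36, 0.73 and 0.12. Gstm3 gave 1.15, 0.67 and 0.47. Mgst3 was 1.23 in cage A and below 0 in cages B (-0.30) and C (-0.27). Over the 10 genes the cage medians were 0.99, 0.18 and -0.14 in the order A, B, C. The order of cages was not the same in the ascending colon, where the medians were 0.34, 0.06 and 0.71. The test of cage dependence called 0 of 10 members and 0.00818% of genes in the descending colon (limma F test), with member adjusted p-values from 0.879 to 0.916.

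**Figure D3:**
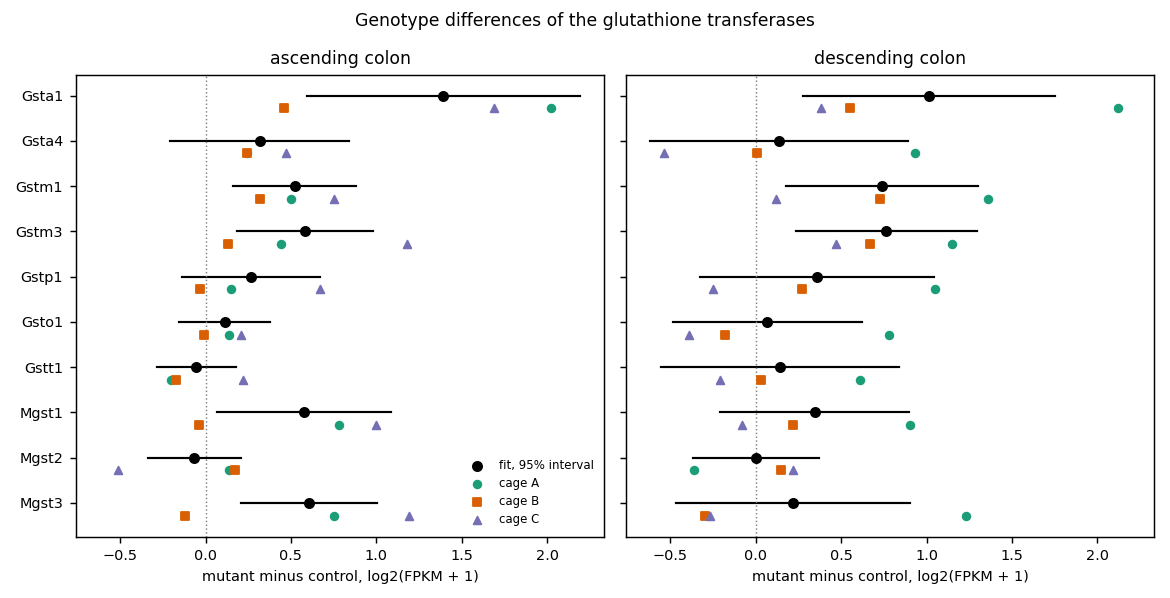
Mutant minus control difference of each gene in log2(FPKM + 1), with the fitted value and its 95% interval in black and the difference of means in each cage below it, for the ascending (left) and descending (right) colon. Gsta1, Gstm1 and Gstm3 lie above 0 in all 3 cages of both regions.

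Whether the genotype difference itself differed between the regions was tested over all 30 libraries. The interaction ran from -0.22 for Gstm1 (SE 0.325, 95% interval -0.88 to 0.45) to 0.39 for Mgst3 (SE 0.385, 95% interval -0.40 to 1.18). For Gsta1 it was 0.38 (SE 0.546, 95% interval -0.75 to 1.497). It called 0 of 10 members and 0% of 12353 genes in limma, with 0 members and 198 genes at an unadjusted p under 0.05. The intervals leave room for differences of either sign, and the region dependence of these genes was not resolved at this size.

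Position along the colon was examined next, first in the 14 control libraries. Gsta1 and Mgst2 rose toward the ascending colon and Gstm1 was lower there. These 3 of 10 passed in limma (2 higher, 1 lower), where 37.9% of 12515 genes passed, 12.8% higher and 25.1% lower. Gsta1 was 1.53 higher in the ascending colon (SE 0.355, adjusted p = 0.0043 in limma). Mgst2 was 0.92 higher (SE 0.139, adjusted p = 0.000189 in limma), running from 52.9 to 83.0 FPKM in ascending and 24.4 to 55.6 in descending controls, with 6 of 7 ascending libraries above every descending one. Gstm1 was lower by 0.66 (log2 -0.66, SE 0.243, adjusted p = 0.0463 in limma). Its call was lost with no filter (adjusted p = 0.0512), under median-of-ratios scaling (-0.50), without cage B or cage C and, among single libraries left out, in 10 of 14 cases (limma throughout).

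In controls Gstp1 differed between regions by 0.62 (SE 0.272, adjusted p = 0.0860 in limma) and Gsto1 by 0.45 (SE 0.185, 0.0701). Gsta4 (0.41), Mgst3 (0.40), Gstm3 (0.31) and Mgst1 (0.15) lay above 0 and Gstt1 below (-0.40), and the 95% intervals of these 5 genes held 0. Gsta1 was above 0 in all 3 cages, at 1.98 in cage A, 1.85 in cage B and 0.60 in cage C, with every ascending control above every descending control of its cage. Without cage B its adjusted p was 0.0657 in limma (1.29), and Mgst2 alone still passed (0.86, 0.0304).

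In the 16 mutant libraries 6 of the 10 genes passed, 4 higher and 2 lower in the ascending colon, where 44.0% of 12203 genes passed, 14.3% higher and 29.7% lower (limma). Gsta1 was 1.87 higher (SE 0.292, adjusted p = 7.77e-05 in limma), Mgst3 0.85 (SE 0.246, 0.0108), Mgst2 0.81 (SE 0.154, 0.000466) and Gsto1 0.56 (SE 0.208, 0.0374). Gstm1 was lower (-0.87, SE 0.177, adjusted p = 0.000835 in limma), as was Gstt1 (-0.55, SE 0.191, 0.0275). In FPKM, 6 of 8 ascending mutants had more Gsta1 than any descending mutant, and 3 of 8 had less Gstm1. Gstt1 and Gsto1 did not hold their calls when a library was left out in 5 and 7 of 16 cases. Gsto1 also lost its call without each cage in turn and with no cage term (adjusted p = 0.0705 in limma). Gstt1 lost it without cage A or B and under quantile scaling (adjusted p = 0.0752 in limma), and Mgst3 without cage C (0.43, adjusted p = 0.0680 in limma).

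The choice of scaling mattered for regions, since the median of all genes was -0.14 in controls and -0.16 in mutants on the deposited scale. Median-of-ratios scaling moved those medians to -0.008 and -0.028. On that scale the calls over all genes were 2137 higher and 1889 lower in controls, in place of 1598 and 3146, and 2320 and 2292 in mutants, in place of 1748 and 3620. Gsta1 stayed higher in the ascending colon (1.67 and 2.01 in controls and mutants), as did Mgst2 (1.08 and 0.97), and Gstp1 (0.78, adjusted p = 0.0480) and Gsto1 (0.61, 0.0420) passed in controls in limma. In mutants Gsta4 (0.81, adjusted p = 0.0312 in limma) and Gstp1 (0.73, 0.0219) passed on this scale, in place of 0.66 and 0.57 with no call on the deposited one. Gstm1 was -0.50 in controls and -0.72 in mutants (adjusted p = 0.00443), and Gstt1 lost its call in mutants (-0.40, 0.0964). No member changed the sign of its regional difference under this scaling.

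**Figure D4:**
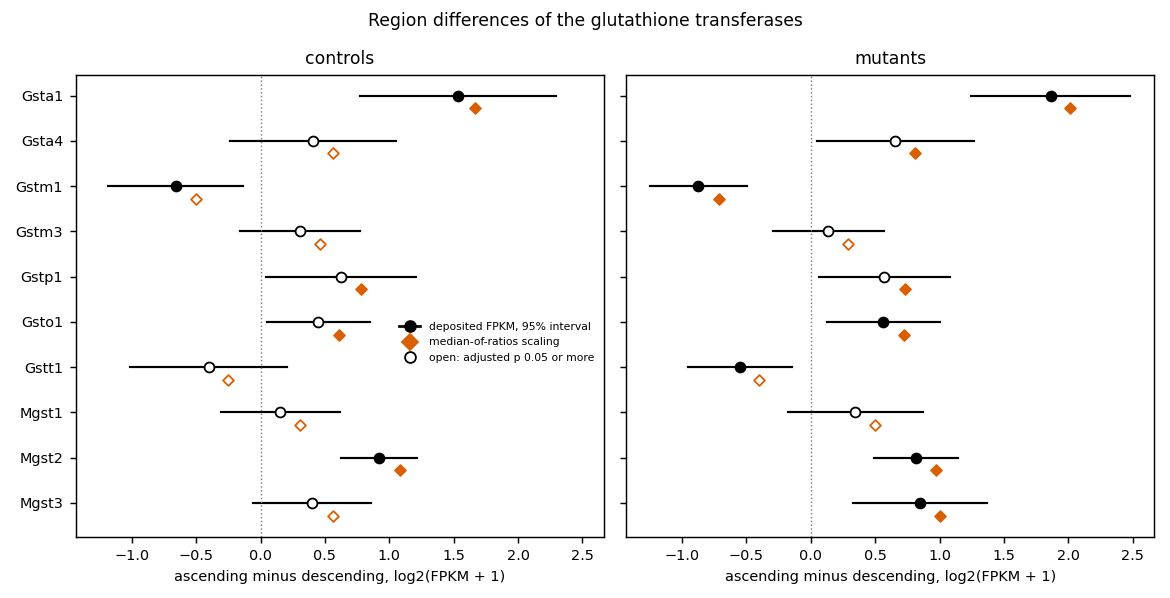
Ascending minus descending difference of each gene in log2(FPKM + 1), in controls (left) and mutants (right): black circles with 95% intervals on the deposited scale, orange diamonds after median-of-ratios scaling, filled where the adjusted p was under 0.05. Gsta1 and Mgst2 are filled and above 0 in both genotypes on both scales, and Gstm1 lies below 0 in both.

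Smooth muscle markers also moved with region in the mutants, where 12 of 13 were lower in the ascending colon and 1 higher (limma, median -1.56), with sums of 29.6 to 94.85 FPKM in the ascending and 60.75 to 366 in the descending mutants. In controls 1 of 13 passed, higher (median -1.12). Of the absorptive colonocyte markers 11 were higher and 3 lower in controls, and 11 and 4 in mutants. T cell genes were higher in 8 of 8 cases in controls (median 1.30) and 6 of 7 in mutants (0.99), and tuft cell genes in 5 of 8 and 7 of 8. Of 15 cell division genes 13 were lower in controls (11 after median-of-ratios scaling) and 7 in mutants (4 on that scale). Crypt stem cell genes were lower in 6 of 9 and 5 of 8 cases, with 1 and 0 higher. Fibroblast and matrix genes were called lower in 0 of 11 cases in controls and 6 of 11 in mutants (4 after that scaling). After median-of-ratios scaling 5 of 13 goblet cell genes were higher and 0 lower in controls, and 4 and 3 in mutants. Of 10 enteroendocrine genes 6 were higher and 2 lower in controls on that scale, and 5 and 3 in mutants. Over all genes 12.8% were higher and 25.1% lower in controls, and 14.3% and 29.7% in mutants (17.1% and 15.1%, 19.0% and 18.8% after that scaling). The part of these cell types in the regional differences of the transferases was not tested.

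Cages were compared within each region with genotype in the fit. Cage A against cages B and C called 0 of 10 members in the ascending colon, where 2.44% of genes passed, and 0 of 10 in the descending colon, where 1.03% passed (limma). At an unadjusted p under 0.05 there were 5 members in the ascending colon, all higher in cage A, and 2574 of 12178 genes. The lowest p of the 5 was that of Gstt1 (0.35, SE 0.113, unadjusted p = 0.00683 in limma). In the descending colon Mgst1 was 0.85 higher in cage A (SE 0.271, adjusted p = 0.147 in limma), and it passed with quality weights (0.79, 0.0219). Cage B against cage C called 0 of 10 in either region, beside 0.0411% and 0.0491% of genes.

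The 10 genes were compared with each other over the 15 libraries of each region, giving 45 pairs per region and 90 correlations, with permutation p-values adjusted over the 90. In the descending colon 26 pairs were positive at an adjusted p under 0.05 and 5 were negative, and in the ascending colon 27 and 0. How many pairs of other genes would pass was not computed, so these counts do not show coordination particular to this family. The closest pair in the descending colon was Gsto1 with Mgst3, with Pearson r = 0.94 and Spearman rho = 0.81 (adjusted permutation p = 0.0003 and 0.00461), and r = 0.87 without the 2 libraries farthest in Gsto1. Their ascending values were r = 0.63 and rho = 0.70 (adjusted permutation p = 0.0229 and 0.014).

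Mgst2 ran against several of the others in the descending colon. Its correlation with each of the other 9 genes was below 0 in both regions, from -0.29 to -0.86 in the descending colon, where 5 of 9 passed, and from -0.08 to -0.55 in the ascending colon, where none did. With Mgst3 in the descending colon r was -0.86 and rho -0.67 (adjusted permutation p = 0.00105 and 0.0196). By rank, 3 of the 9 passed (Mgst3, Gsto1 and Gstt1). Without descending mutant C1 and descending control A2, the 2 libraries farthest from the median, the r with Mgst3 was -0.55. Those with Gsta4 and Gstp1 went from -0.83 to -0.17 and from -0.72 to -0.02, so these relations rest on those 2 libraries. The r with Gstt1 went from -0.81 to -0.38 without them. With Gsto1 it went from -0.81 to -0.76 without the 2 libraries farthest in Gsto1. Descending mutant C1 (66.3 FPKM Mgst2, 104.55 Mgst3) and descending control A2 (55.6 and 132) had the highest Mgst2 and lowest Mgst3 of the region. The same libraries had the lowest Epcam, and the part of tissue make-up was not tested. The libraries of a region share cages and genotypes, so they are not fully independent.

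**Figure D5:**
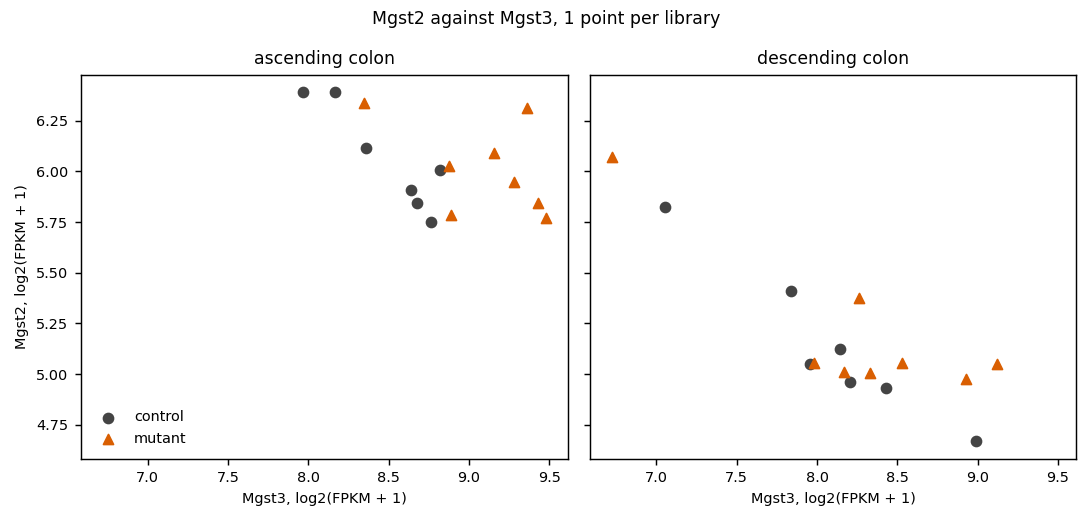
Mgst2 against Mgst3 in log2(FPKM + 1), 1 point per library, in the ascending (left) and descending (right) colon, with controls as circles and mutants as triangles. In the descending colon the 2 libraries with the lowest Mgst3, mutant C1 and control A2, have the highest Mgst2.

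For each member the 3 most similar genes were taken by Pearson r over all 30 libraries among 11082 genes, as a description that includes the difference between regions. Gsta1 was most like Pgd, an enzyme of the pentose phosphate pathway (r = 0.88), Car1, a carbonic anhydrase of colonocytes (0.84), and Elovl1 (0.84). Gstp1 was most like Gclm, the modifier subunit of the enzyme that starts glutathione synthesis (0.93), P4hb (0.93) and Hadh (0.91). Gstm1 was most like 2 relatives, Gstm2 (0.91) and Gstm7 (0.88), and Anxa11 (0.87), and Gstm3 like Mgst1 (0.85), Dbi (0.84) and Pdk3 (0.84). Mgst3 was most like Cox6b1 (0.95) and Uqcrfs1 (0.94), subunits of the respiratory chain, and Prdx5, a peroxiredoxin (0.94). Mgst2 was most like Pld1 (0.96), Ptprd (0.94) and Cdc42bpa (0.94).

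The remaining members were most like Qdpr (0.90), Rnf128 (0.89) and Hadh (0.88) for Gsta4, and Bsg (0.94), Ptdss1 (0.93) and Uqcrfs1 (0.91) for Gsto1. For Gstt1 they were Cpd (0.90), Rab25 (0.90) and Dbt (0.89), and for Mgst1 they included Banf1 (0.89) and Echs1 (0.88).

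Other genes of the glutathione pathway were read from lists. The list of other transferases also held Alox5ap, Gstcd, Ltc4s, Ptges and Ptges2, and not all of these are glutathione transferases. Of 18 genes of that list tested in the ascending genotype comparison 11 were above and 7 below controls with 0 called in limma (median 0.10). In the descending colon 12 of 19 were above with 0 called (median 0.04). Of 20 NRF2 targets, 14 were above controls in the ascending and 12 in the descending colon, with 0 called (medians 0.11 and 0.01). Nqo1, a quinone reductase and NRF2 target, was 0.56 higher in ascending mutants (SE 0.204, adjusted p = 0.345 in limma) and 0.43 in descending mutants (SE 0.219, 0.999). Gclc, the catalytic subunit for glutathione synthesis, differed by 0.12 and 0.09, and Nfe2l2, which encodes NRF2, by 0.06 and 0.07. Keap1, which restrains NRF2, differed by -0.05 and -0.11, and Gsr, which regenerates glutathione, by 0.22 and -0.02.

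Between regions, 13 of 20 NRF2 targets were higher in the ascending colon of controls and 0 lower (limma, median 0.63), where 12.8% of all genes were higher and 25.1% lower. The counts in mutants were also 13 and 0 (median 0.62), beside 14.3% and 29.7% of all genes. Nqo1 was 2.11 and 2.18 higher in controls and mutants, Gclc 0.85 and 0.84 and Nfe2l2 0.81 and 0.80, all called in limma. Gclm was 0.50 higher in controls (adjusted p = 0.0151 in limma) and 0.38 in mutants (0.0935). Keap1 was 0.41 and 0.49 higher. Ahr, which encodes the aryl hydrocarbon receptor, was lower, at -0.41 and -0.32, both called.

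The peroxidase Gpx2 was lower in the ascending colon of controls (-1.10, adjusted p = 0.000491 in limma) and at -0.86 in mutants (0.0963). For Gpx1 the values were -0.44 and -0.30, and for the xenobiotic receptor Nr1i2 -0.06 and 0.01, with no call for either gene. Of the peroxidases and redoxins 6 were higher and 3 lower of 31 tested in controls, and 7 and 2 in mutants. On the deposited scale this was a smaller share than of all genes (37.9% and 44.0%). That order did not hold after median-of-ratios scaling. There 8 were higher and 3 lower in controls (25.8% and 9.68%, beside 17.1% and 15.1% of all genes). In mutants 11 and 2 were called on that scale (35.5% and 6.45%, beside 19.0% and 18.8%). Prdx6 was lower (-2.38 and -2.32) and Srxn1, the sulfiredoxin, higher (1.48 and 1.46).

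Of the 19 genes tested from the list of other transferases, 1 was higher in the ascending colon of controls and 8 were lower (limma, median -0.31). In mutants the counts were 2 and 8 (median -0.36). Calls over all genes were also mostly lower on the deposited scale, 3146 of 4744 in controls and 3620 of 5368 in mutants. After median-of-ratios scaling the counts of this list were 1 and 7 in controls (median -0.16), beside 17.1% of all genes higher and 15.1% lower. In mutants they were 3 and 7 (median -0.21), beside 19.0% and 18.8%. Gstk1, the mitochondrial and peroxisomal kappa enzyme, was 1.49 and 1.44 higher in controls and mutants. In ascending controls it ran from 19.0 to 45.8 FPKM and in descending controls from 8.47 to 13.7, with no overlap. Gstp3, a relative of Gstp1, was lower (-1.99 in controls), running from 0.57 to 3.68 FPKM in ascending and from 6.45 to 17.8 in descending controls. Of the mu relatives of Gstm1, Gstm7 (-1.10 and -1.31), Gstm6 (-0.83 and -1.32) and Gstm2 (-0.62 and -0.74) were lower and called in both genotypes. Gstm5 was lower in controls (-0.76, adjusted p = 0.0113 in limma) and stood at -0.47 in mutants (0.0992). Gstm4 gave -0.23 (adjusted p = 0.244 in limma) and -0.17 (0.471), while Gstm3 lay on the other side of 0, at 0.31 and 0.14 with no call. Gstp2, which shares sequence with Gstp1, was 0.57 higher in controls (adjusted p = 0.132 in limma) and 0.56 in mutants (0.0145).

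Enzymes before and after the transferases also differed by region. The counts below stand beside 12.8% of all genes higher and 25.1% lower in controls, and 14.3% and 29.7% in mutants. Of 33 phase I enzymes tested, which prepare molecules for conjugation, 20 were higher and 8 lower in the ascending colon of controls, and 24 and 8 in mutants. Cyp2c65 was 4.84 and 5.47 higher and Aldh1a1 3.90 and 4.24. Among 18 other conjugating enzymes 8 were higher and 1 lower in controls, led by the glucuronosyltransferase Ugt2b5 (4.11 and 4.86), and 12 and 0 in mutants. Of 12 exporters of conjugates 6 were higher and 2 lower in each genotype: Abcc3 was 1.17 and 1.26 higher and Abcc4 lower at -1.45 and -1.81. Of the 22 genes for glutathione synthesis and supply tested in controls, 7 were higher and 6 lower (8 and 2 after median-of-ratios scaling), among them the dipeptidase gene Dpep1 (3.84) and the transporter gene Slc1a1 (-1.92). All values here are log2(FPKM + 1) differences, and each named gene passed in limma unless its adjusted p is given.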

How the data were processed

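The labels' protocols state that ribosomal RNA was removed from 1 µg of total RNA and that single reads of 50 nt were sequenced. The authors deposited 1 table of FPKM with 2 decimals. The submitters' processing notes list bcl2fastq 2.17, STAR and DESeq2 beside the GRCm38 (mm10) genome, and no source used here names the gene counter, strand setting or annotation release. The members, gene lists and tests were chosen with earlier results of these data known, so none is independent support.

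A gene entered a fit when it averaged 0.5 FPKM or more over the libraries of that fit. Values of log2(FPKM + 1) were fitted with limma 3.58.1 (R 4.3.3, lmFit, eBayes with a trend), with cage as covariate, two-sided, with Benjamini-Hochberg adjustment over all genes and a threshold of 0.05. Each log2 difference is on that scale, which understates changes of low genes. Genotype fits used 15 libraries, regional fits 14 or 16, and the interaction 30. The fits were tested on simulated data. Read counts are not used here, so depth was estimated from the spacing of low values and entered no test. The precision of a value comes from the spread between libraries. Correlations and their 100000 permutations were computed with numpy 2.4.6, with ranks from scipy 1.17.1.

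Positions come from GENCODE M21, in which 14472 of 14475 identifiers were found. The alternatives changed the pseudocount (to 0.1), the filter (none, or 2 FPKM), the scaling (median-of-ratios, quantile) and the weights (by library quality). Others left out a cage or a library, dropped the cage term, pooled the 30 libraries in 1 fit, or added a replicate block. Named genes were the 10 members, up to 4 called genes per pathway list and comparison, 10 further genes of glutathione and its control, other transferases averaging 1 FPKM or more, and the 3 genes most like each member, of which 1 is not reported here.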

Additional observations from a re-analysis of the deposited data

Results flagged for a closer look

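In 3 of the 40 groups of libraries examined (10 genes in 4 groups each), 1 library lay far from the others, by Dixon's test at the 95% level. Chance flags about 1 in 20 such groups if the values are normally distributed. The test was run on FPKM, which stretches high values, and not on the log2(FPKM + 1) scale of the fits. A flag therefore need not hold on that scale. Gsta1 was 47.49 FPKM in ascending control B3, where the next highest of the 7 controls was 22.46. Gstm1 was 268.77 FPKM in descending mutant A3, with the next of the 8 mutants at 134.67. Mgst2 was 66.33 FPKM in descending mutant C1, with the next at 40.49. Without ascending control B3 the ascending genotype difference of Gsta1 was 1.60 in place of 1.39 (log2), and without descending mutant A3 the descending difference of Gstm1 was 0.60 in place of 0.74. Neither difference passed the test with or without that library.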

How the results depend on the processing

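Directions of the 5 ascending genotype differences with the lowest p, and of the descending differences of Gsta1, Gstm1 and Gstm3, held under every alternative run. The calls did not. In the ascending genotype comparison 0 members passed, against 5 with quality weights, 5 without cage B and 5 without both B1 libraries, and 0 to 3 when each library was left out. Regional calls in controls, 3 in the main fit, were 6 with quality weights (6232 genes) and 1 without cage B (2069 genes in place of 4744). Median-of-ratios scaling gave 4 in controls, 2 of them shared with the main calls, and 7 in mutants, 5 of them shared with the main 6. Quantile scaling gave 1941 higher and 2262 lower genes in controls and 2097 and 2282 in mutants. Without cage C 3528 genes passed in mutants in place of 5368 and 2567 in controls. Of the cage contrasts with 0 members called, cage A against B and C gave 1 (ascending) and 2 (descending) with quality weights, with 1077 and 1234 genes in place of 297 and 126, and 1 in the descending colon without control A2 and mutant C1 (224 genes). Cage B against C gave 1 in the ascending colon without both B1 libraries (430 genes in place of 5), and the ascending test of cage dependence 0 to 1 with each library left out. The cause of these changes was not tested.

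Small differences changed sign. Ascending Gstt1 was 0.022 without cage A, 0.0062 without cage B and 0.0057 without both B1 libraries, and Mgst2 0.16 without cage C. In the descending colon Gsto1 was -0.031 with quantile scaling, -0.29 without cage A and -0.0083 without A2 and C1. Mgst2 was -0.031 with quantile scaling, -0.072 without cage B and -0.11 without cage C. Without cage A, Gsta4 was -0.26, Gstt1 -0.090 and Mgst3 -0.29. The interaction was 0.11 for Gstm1 without cage A and -0.15 for Mgst3 without cage C, and regional differences were -0.091 for Mgst1 in controls without cage B and -0.10 for Gstm3 in mutants without cage C. With each library left out, ascending Gstt1 ran from -0.11 to 0.022, descending Gsta4 from -0.15 to 0.39, Gsto1 from -0.17 to 0.22, Gstt1 from -0.16 to 0.31, Mgst2 from -0.098 to 0.16 and Mgst3 from -0.063 to 0.39. The interaction of Gstm1 ran from -0.41 to 0.013, and Gstm3 between regions in mutants from -0.034 to 0.24.

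The replicate block, from numbers in the titles, gave 0 members called in both genotype comparisons and the interaction, 2 in controls (without Gstm1, adjusted p = 0.0545 in limma) and 8 in mutants between regions (with Gsta4 and Gstp1, 0.0153 and 0.0300), with 4236 and 5219 genes. Under it descending Gsta4 was -0.082, Gsto1 -0.094 and Gstt1 -0.054. The numbers did not pair the libraries: deviations of same-numbered libraries correlated at -0.258 to 0.358 across 15 regional pairs (own number best in 4 of 15) and -0.176 to 0.383 across 12 genotype pairs. The files hold no counts, so the depth behind a low value is only estimated, from 1.43 to 8.85 M reads.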
